A study of Mus musculus with 8 samples.

Results

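The IL-6 family and STAT3 axis was followed here through 9 genes, out of 54427 listed in the deposited expression table of CCK-injured mouse pancreatic acinar cells. They are the cytokines Il6 and Lif, the receptor genes Il6ra, Il6st and Osmr, the transcription factor Stat3, its feedback inhibitor Socs3, its target Sbno2, and Csf3r, the receptor of granulocyte colony-stimulating factor (G-CSF). The genes were chosen by symbol and role, and Sbno2 and Csf3r also because an earlier analysis of the same libraries had found them lower with OCA. The difference between AP_OCA and AP is therefore given for the 9 genes as a description. No p-value is given for them, and their counts past the threshold stand only beside the share of all genes. All 9 were found, and all 9 passed the minimum level for testing, which was 1 CPM on average.

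The study compared 4 AP_OCA libraries with 4 AP libraries, all from primary acinar cells of wild-type (WT) mouse pancreas. Both groups were injured with 1 µM cholecystokinin octapeptide (CCK), a gut hormone that drives enzyme secretion, for 6 h. By the titles AP_OCA also received OCA, which usually stands for obeticholic acid, a bile acid derivative that activates the nuclear receptor FXR, and AP did not. The treatment text gives 2.5 µM OCA and is the same for all 8 samples, so the difference between the groups rests on the titles. No uninjured group was analysed here, and the labels do not say whether replicates came from separate animals or preparations, so every p-value measures the spread between these libraries. Summed over 14 acinar markers, the 3 AP_OCA libraries other than replicate 2 held 415618 to 455740 CPM and the AP libraries 453802 to 463021 CPM, where CPM is a rescaled value that sums to 1000000 in each library.

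Cytokines of the IL-6 family bind a receptor chain of their own and share gp130, the product of Il6st, as the signalling chain. Receptor-bound Janus kinases then phosphorylate STAT3, which enters the nucleus and raises transcription of its targets. Among these is Socs3, whose product binds gp130 and the kinases and ends the signal. In pancreatitis, IL-6 from infiltrating and stromal cells is known to activate STAT3 in acinar cells.

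The authors' values had been quantile normalised, so every library has nearly the same set of CPM values, and a CPM gives a gene's place in that set rather than its part of the reads. AP_OCA replicate 2 stood apart and is shown separately. Its correlation with the other 7 libraries across genes, which are not independent replicates, was 0.561 to 0.635, against 0.873 to 0.981 among those 7. The acinar regulator Ptf1a was at 1.12 CPM in it and at 17.4 to 34.5 CPM in the others. The 14 acinar markers together differed less, with 386688 CPM in it and 415618 to 463021 CPM in the others. Quantile normalisation holds the highest values nearly fixed, so this sum, here and between the groups above, does not measure the share of acinar RNA. Summed over 14 lymphocyte markers it held 3559 CPM, against at most 34.1 CPM elsewhere. Over 14 macrophage and myeloid markers it held 1339 CPM, against at most 224 CPM. The enzyme transcript Ctrb1 was the most abundant gene in every library. In AP replicate 3, values also rose with the GC content of the transcript (Spearman's rho 0.651 across genes, against -0.354 to 0.0828 in the other 6 libraries). The trend with transcript length differed between the groups: rho was -0.143, -0.189 and -0.251 in AP_OCA replicates 1, 3 and 4, against 0.393, 0.249, -0.116 and 0.406 in AP replicates 1 to 4. Values with both trends removed are therefore given beside the differences they move.

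Sequence before RefSeq transcript starts is shown for Socs3, Sbno2 and Csf3r. These are the genes furthest from 0 in the fit without AP_OCA replicate 2 described below. The 250 bases before each RefSeq start were searched on both strands for TTCNNNGAA, the letters of a STAT binding element. Of all 32851 such windows in the RefSeq table of the GRCm38.p6 assembly, 7.02% hold a match. Among the 9 genes, Socs3 and Sbno2 hold one, Sbno2 at 2 of its 3 starts. Capitals mark the match, and bases in annotated exons are left out except at the first Sbno2 site, where the match reaches into one.
Socs3, chr11:117969452-117969616, minus strand: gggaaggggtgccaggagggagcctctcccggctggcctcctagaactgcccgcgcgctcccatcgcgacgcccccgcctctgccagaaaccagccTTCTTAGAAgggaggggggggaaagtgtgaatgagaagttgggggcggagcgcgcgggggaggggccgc
Sbno2, first start, chr10:80102709-80102738, minus strand: gccgcgccccTTCGCAGAAgcggaagtgcg
Sbno2, second start, chr10:80101188-80101437, minus strand: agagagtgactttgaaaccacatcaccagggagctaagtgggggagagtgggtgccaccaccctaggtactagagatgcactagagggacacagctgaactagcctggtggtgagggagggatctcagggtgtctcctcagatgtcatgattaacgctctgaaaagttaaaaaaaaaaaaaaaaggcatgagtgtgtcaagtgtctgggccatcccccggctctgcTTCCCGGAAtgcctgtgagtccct
Csf3r, chr4:126024409-126024549, plus strand, with no match in its whole window: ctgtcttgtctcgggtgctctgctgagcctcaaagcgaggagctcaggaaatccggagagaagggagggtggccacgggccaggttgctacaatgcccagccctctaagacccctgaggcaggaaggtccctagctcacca
The Socs3 match begins 154 bases before the RefSeq start, the Sbno2 matches 26 and 24 bases before theirs. An AP-1 element, TGANTCA, was found before Il6 and Lif (6.75% of all windows hold one), and an NF-kB element only before Il6 among the 9 (0.356% of all windows hold one). These are matches of letters and were not tested as binding sites. The gene bodies, in mm10 coordinates of the GENCODE M21 annotation, are chr11:117966079-117970047 (Socs3, minus strand), chr10:80056992-80105571 (Sbno2, minus strand), chr4:126024550-126044440 (Csf3r, plus strand) and chr11:100885098-100939540 (Stat3, minus strand). By these coordinates the stretches shown for Socs3 and Sbno2 lie inside the gene bodies, so they are not upstream of the whole gene. The Csf3r stretch lies before its gene body.

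**Figure D1:**
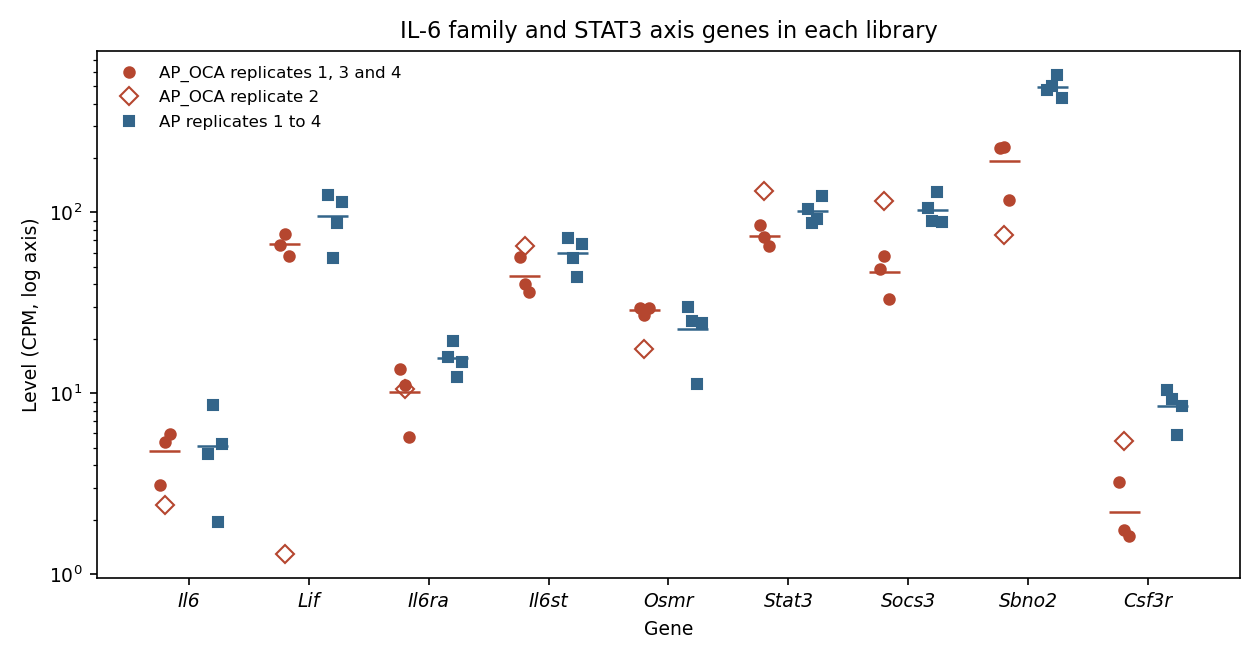
Level of each of the 9 genes in every library, in CPM on a log axis; points are libraries, with AP_OCA left of AP, and short lines are the means of AP_OCA replicates 1, 3 and 4 and of AP. Sbno2, Socs3, Stat3 and Csf3r lay below every AP library in those 3 AP_OCA libraries, while Socs3 and Stat3 of AP_OCA replicate 2 (open diamond) did not, and its Lif lay far below all others.

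Among the cytokines, Lif was well represented and Il6 was low in both groups. Lif, a cytokine that signals through gp130 and the LIF receptor, stood at 66.5, 76.3 and 57.7 CPM in AP_OCA replicates 1, 3 and 4, against 125, 56.3, 87.3 and 114 CPM in AP replicates 1 to 4. The groups overlap through AP replicate 2, which was below all 3. AP_OCA replicate 2 held Lif at 1.29 CPM, which is 0.0135 of the AP mean. Read by the steps of that library's values, this is at least 84 counts, so the gene was detected there. The log2 difference of Lif was -0.46 ± 0.24 (SE) without AP_OCA replicate 2 and -1.68 ± 1.02 with it, both on the log2(CPM + 1) scale as are all differences here. Il6, the founding cytokine of the family, stood at 3.09, 5.36 and 5.94 CPM in AP_OCA replicates 1, 3 and 4 and at 2.41 CPM in replicate 2, against 4.60, 8.65, 1.95 and 5.27 CPM in AP. Both ends of the Il6 range belong to AP, with AP replicate 3 the lowest library of all 8. Its log2 difference was 0.01 ± 0.35, and it took the opposite sign in 8 of 18 alternative settings. With the length and GC trend removed, without AP_OCA replicate 2, the difference was -0.42 for Il6 and -0.17 for Lif.

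The receptor genes overlapped between the groups. Il6ra, which encodes the IL-6 binding chain, averaged 10.2 ± 4.05 CPM (SD) in 3 AP_OCA libraries and 15.6 ± 2.92 CPM in 4 AP libraries. AP_OCA replicate 4 was the lowest at 5.73 CPM, and AP_OCA replicate 1, at 13.6 CPM, lay above AP replicate 3 at 12.3 CPM. Without AP_OCA replicate 4 the log2 difference of Il6ra was -0.30, against -0.63 ± 0.26 with it. With the length and GC trend removed, without AP_OCA replicate 2, the difference of Il6ra was -0.35. An exon of another annotated gene lies on the opposite strand over Il6ra, and another, of Stat5a, over Stat3; the strandedness of the counting is not given in the sources used here, so reads of such pairs cannot be told apart.

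Il6st, the gp130 gene, averaged 44.4 ± 11.0 CPM (SD) in those 3 AP_OCA libraries and 59.7 ± 12.6 CPM in the 4 AP libraries. AP_OCA replicate 2 lay within the AP range at 64.9 CPM. Osmr, which pairs with gp130 to bind oncostatin M, was the one receptor gene of the 3 with a positive difference, 0.41 ± 0.27. It stood at 29.7, 27.0 and 29.6 CPM in AP_OCA replicates 1, 3 and 4, against 29.9, 25.0, 11.3 and 24.3 CPM in AP. The 3 AP_OCA values nearly coincide at the upper end of the AP range. Without AP replicate 3, the lowest library, the difference was 0.12. With the length and GC trend removed, Osmr was at 0.41 and Il6st at -0.31, against -0.42 ± 0.21 for Il6st before.

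Stat3 itself differed less than Socs3 and Sbno2. It stood at 85.5, 72.8 and 65.3 CPM in AP_OCA replicates 1, 3 and 4, against 105, 87.4, 91.8 and 123 CPM in AP. These 3 libraries lay just below the AP range, whereas AP_OCA replicate 2 had the highest value of all 8 libraries, 132 CPM. The log2 difference was -0.44 ± 0.18 without AP_OCA replicate 2 and -0.23 ± 0.27 with it. With the trend of each library with transcript length and GC content removed, it was -0.10.

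Socs3 and Sbno2 differed more. Socs3 stood at 48.9, 57.7 and 33.3 CPM in AP_OCA replicates 1, 3 and 4, against 106, 90.2, 129.7 and 88.5 CPM in AP. The highest of the 3 was well below the lowest AP library, but AP_OCA replicate 2 held 116 CPM, inside the AP range. The mean of the 3 was 0.451 of the AP mean, and the log2 difference was -1.15 ± 0.21, or -0.82 ± 0.37 with all 8 libraries. With the length and GC trend removed, without AP_OCA replicate 2, the difference was -0.89.

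Sbno2, a nuclear co-regulator known in macrophages as a STAT3 target, ranked between 84 and 373 among all genes in the 7 libraries other than AP_OCA replicate 2 and was the most abundant of the 9 there. It stood at 228, 229 and 118 CPM in AP_OCA replicates 1, 3 and 4 and at 75.4 CPM in replicate 2, against 477, 502, 578 and 432 CPM in AP. All 4 AP_OCA libraries were below all 4 AP libraries, with replicate 2 the lowest. The mean of AP_OCA replicates 1, 3 and 4 was 0.385 of the AP mean, and the log2 difference was -1.43 ± 0.23, or -1.74 ± 0.38 with all 8 libraries. With the length and GC trend removed it was -0.90. Socs3 and Sbno2 have the highest GC content of the 9 transcripts (58.7% and 59.1%), and both had their highest value in AP replicate 3. Without that library Socs3 had a difference of -1.04 and Sbno2 of -1.35.

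Csf3r had the largest difference of the 9 in the fit of 7 libraries, at a low level; with a pseudocount of 5 CPM it came after Sbno2 and Socs3, and with all 8 libraries after Sbno2 and Lif. The G-CSF receptor is best known from neutrophils and their precursors, where it signals through Janus kinases and STAT3. It stood at 3.24, 1.77 and 1.63 CPM in AP_OCA replicates 1, 3 and 4 and at 5.42 CPM in replicate 2, against 10.4, 9.36, 5.89 and 8.51 CPM in AP. All 4 AP_OCA libraries were below all 4 AP libraries, although AP_OCA replicate 2 came close to AP replicate 3. By the steps of the values, the lowest 2 libraries rest on at least 18 and 17 counts and the AP libraries on at least 65. The log2 difference was -1.58 ± 0.26, or -1.32 ± 0.33 with all 8 libraries. With the length and GC trend removed, without AP_OCA replicate 2, the difference was -1.31. Because the gene is low, the size depends on the pseudocount: it was -1.94 with 0.1 CPM and -0.91 with 5 CPM, where Sbno2 was at -1.41 and Socs3 at -1.08.

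Markers of other cells that could carry Csf3r were also read in each library. The sum of 15 neutrophil markers was 25.1 to 80.5 CPM in AP_OCA replicates 1, 3 and 4, against 36.5 to 72.8 CPM in AP. The calgranulin genes S100a8 and S100a9 make up much of this sum, with 27.2 and 35.5 CPM of the 80.5 CPM in AP_OCA replicate 4, and both overlapped between the groups. Of the 9 neutrophil markers tested, 8 had a difference below 0 and none passed limma, with a median of -0.47. For 3 of them, named after their values were seen, AP_OCA lay below AP without overlap, both in the 7 and in all 8 libraries. Of all genes tested, 12.1% did so in the 7 libraries and 8.57% in all 8. The 3 markers are the chemokine receptor gene Cxcr2 (-0.91 ± 0.32), the myeloid receptor gene Trem1 (-0.80 ± 0.27) and the gelatinase gene Mmp9 (-0.77 ± 0.29). They are low: Cxcr2 was at 0.218 to 0.831 CPM in the 3 AP_OCA libraries and at 0.903 to 3.28 CPM in AP. Mpo and Elane, granule enzymes that define neutrophil precursors, were at 0 in all 7 libraries. Other granule genes of the list were below the minimum level but not at 0 throughout. Ngp was at 0.130, 1.45 and 1.11 CPM in AP_OCA replicates 1, 3 and 4, against 0.129 to 0.631 CPM in AP. Ltf and Camp were at most 0.393 and 0.218 CPM in the 7 libraries.

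Macrophage and myeloid markers summed to 132 to 153 CPM in AP_OCA replicates 1, 3 and 4 and 124 to 224 CPM in AP. Of the 14 tested, 9 had a difference below 0 and none passed limma, with a median of -0.28. Here 3 genes, named after their values were seen, lay below AP without overlap in the 7 libraries, against 12.1% of all genes. They are the lysosomal gene Cd68 (-1.11 ± 0.28), Laptm5 (-1.09 ± 0.32) and the macrophage receptor gene Adgre1 (-0.71 ± 0.25). AP_OCA replicate 2 was above all AP libraries for these 3, and with it the Laptm5 difference was 0.35. Endothelial markers (53.5 to 111 CPM against 123 to 153 CPM) and stellate cell and fibroblast markers (116 to 173 CPM against 184 to 247 CPM) were lower in all 3 AP_OCA libraries than in any AP library, and ductal markers were higher (268 to 316 CPM against 144 to 222 CPM). Of these lists Eng (endothelial) and Col1a1 (fibroblast) were the genes that passed, both lower, and neither did once the length and GC trend was taken out (-0.61 for Eng and -0.82 for Col1a1). Islet markers overlapped (1229 to 1717 CPM against 502 to 2132 CPM). The part of these cell types in the differences of the 9 genes was not tested, and in such bulk samples fewer cells of a type and less RNA per cell cannot be told apart.

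**Figure D2:**
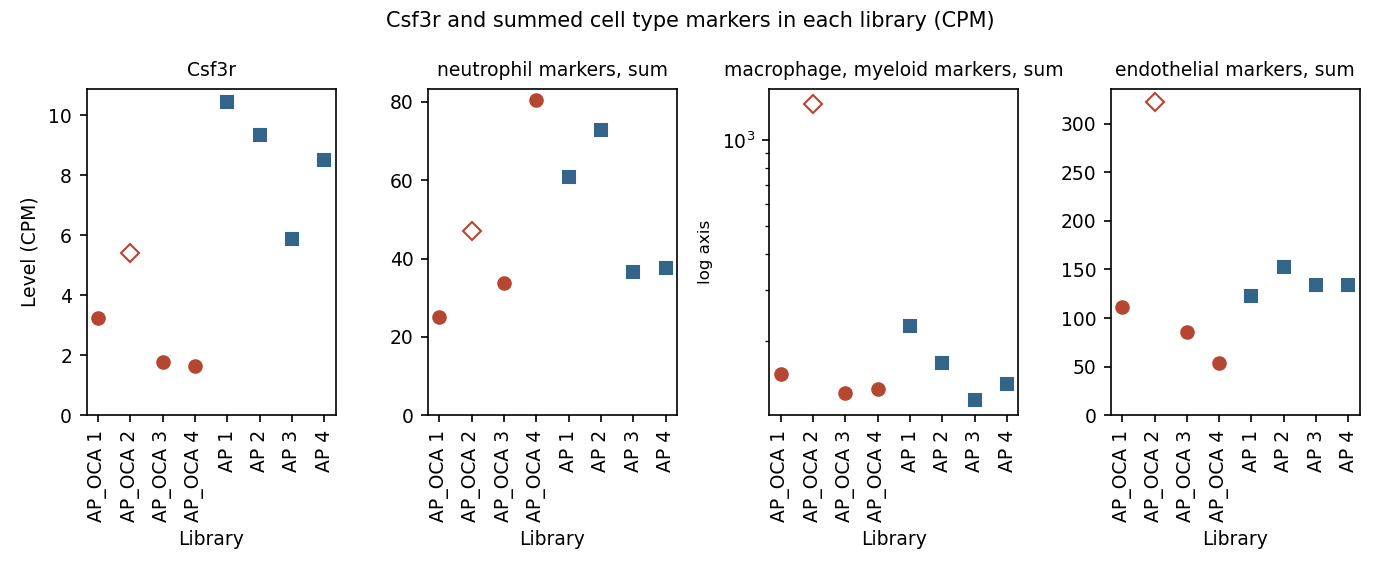
Level of Csf3r and the summed level of 15 neutrophil, 14 macrophage and myeloid (log axis) and 12 endothelial markers in each library, in CPM; circles are AP_OCA replicates 1, 3 and 4, the diamond is AP_OCA replicate 2 and squares are AP. Csf3r separates the groups, the neutrophil sum overlaps between them at 25.1 to 80.5 CPM in AP_OCA circles and 36.5 to 72.8 CPM in AP, and the endothelial sum is lower in the circles.

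Without AP_OCA replicate 2, 3 of the 9 genes passed the limma test in the lower direction (Socs3, Sbno2 and Csf3r), against 1.59% of all 10894 genes tested, and none in the higher direction, with 2.44% of all genes passing in either. The median log2 difference of the 9 was -0.46, and that of all genes tested was -9.0e-05. The difference was below 0 in 7 of the 9, against 50% of all genes. Groups did not overlap, with AP_OCA below, in 4 of the 9, against 12.1% of all genes, and 23.2% of all genes did not overlap in either direction. Since the same contrast chose the genes, nothing is read from these counts. With all 8 libraries 0 of 11311 genes passed limma (percent passing 0), while 1830 had an unadjusted p under 0.05 and quality weights per library gave 1052 passing genes. Sbno2 and Csf3r were then the 2 of 9 genes below AP without overlap, against 8.57% of all genes, and 8 of the 9 differences were below 0, against 50.9% of all genes. With a further library left out, the count past the threshold was 3 without AP_OCA replicate 1 or 4, 1 without AP_OCA replicate 3 (Sbno2) or AP replicate 3 (Csf3r), and 0 without AP replicate 1, 2 or 4. Over these fits the difference was -1.32 to -0.93 for Socs3, -1.59 to -1.11 for Sbno2 and -1.80 to -1.46 for Csf3r.

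**Figure D3:**
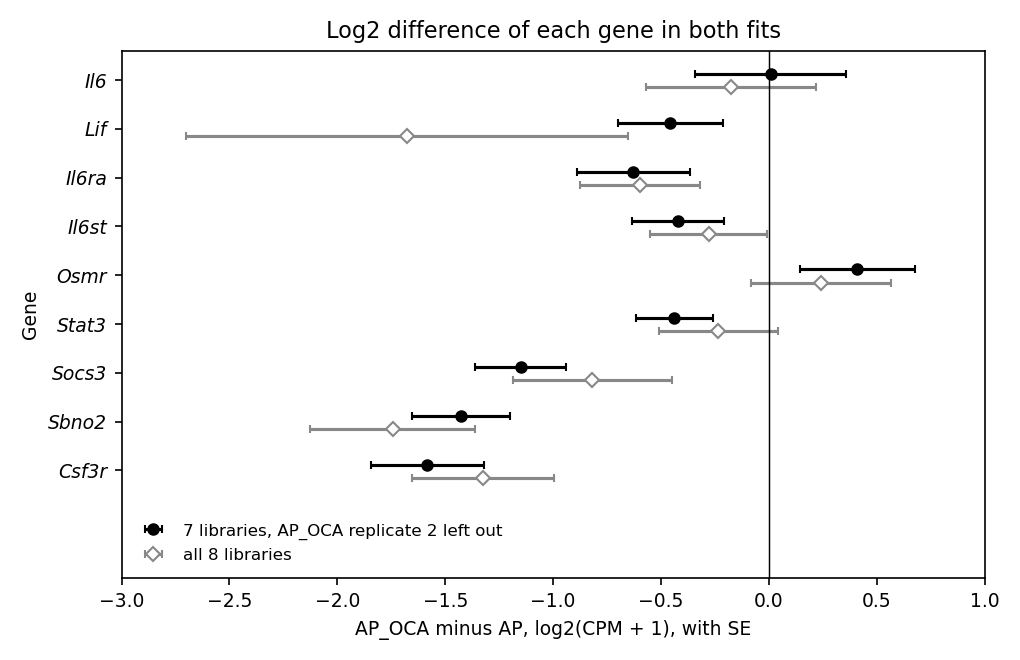
Log2 difference of each gene, AP_OCA minus AP, with its standard error, from the fit of 7 libraries (filled circles) and of all 8 (open diamonds). Socs3, Sbno2 and Csf3r lie beyond -0.8 in both fits, Osmr lies above 0, and Lif lies at -0.46 in the fit of 7 libraries and at -1.68 in that of all 8.

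Levels of different genes were compared per kilobase of transcript. In AP the order was Sbno2 (103 ± 12.6 CPM per kb, SD, n = 4), Socs3 (40.6 ± 7.48), Lif (23.7 ± 7.59), Stat3 (16.8 ± 2.62), Il6st (6.88 ± 1.46), Osmr (4.12 ± 1.45), Csf3r (2.46 ± 0.557), Il6 (2.18 ± 1.18) and Il6ra (1.81 ± 0.338). The AP ranges of Sbno2 and Socs3 did not overlap each other or the next gene, and neither did those of Stat3 and Il6st. Lif overlapped Stat3, and the 5 genes from Il6st down each overlapped their neighbour. In AP_OCA replicates 1, 3 and 4 Sbno2 was again the highest at 39.5 ± 13.2 CPM per kb, and Csf3r the lowest at 0.635 ± 0.257. In AP_OCA replicate 2 Socs3, at 45.5, stood above Stat3, at 21.8, and Sbno2, at 15.6.

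Ratios between genes within a library do not depend on a linear scaling of that library. They do depend on the quantile normalisation and on the trends with transcript length and GC content, which were not removed here. The log2 ratio of Sbno2 to Stat3 was 1.42, 1.65 and 0.85 in AP_OCA replicates 1, 3 and 4, against 2.19, 2.52, 2.65 and 1.82 in AP. Sbno2 was thus lower relative to Stat3 in each of the 3 than in any AP library, and in AP_OCA replicate 2 the ratio was -0.80. The log2 ratio of Socs3 to Stat3 had a mean of -0.70 ± 0.33 (SD) over those 3 AP_OCA libraries and of 0.02 ± 0.40 over the 4 AP libraries, and it overlapped because AP replicate 4 stood at -0.47 and AP_OCA replicate 3 at -0.33. The log2 ratio of Osmr to Il6st was -0.94, -0.57 and -0.29 in AP_OCA replicates 1, 3 and 4, against -1.28, -1.15, -1.96 and -1.46 in AP. The oncostatin M receptor chain was thus higher relative to gp130 in each of the 3 than in any AP library, while AP_OCA replicate 2, at -1.89, lay within the AP range. Il6ra to Il6st and Lif to Il6 overlapped. The ratios were formed after the levels were known and carry no test.

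**Figure D4:**
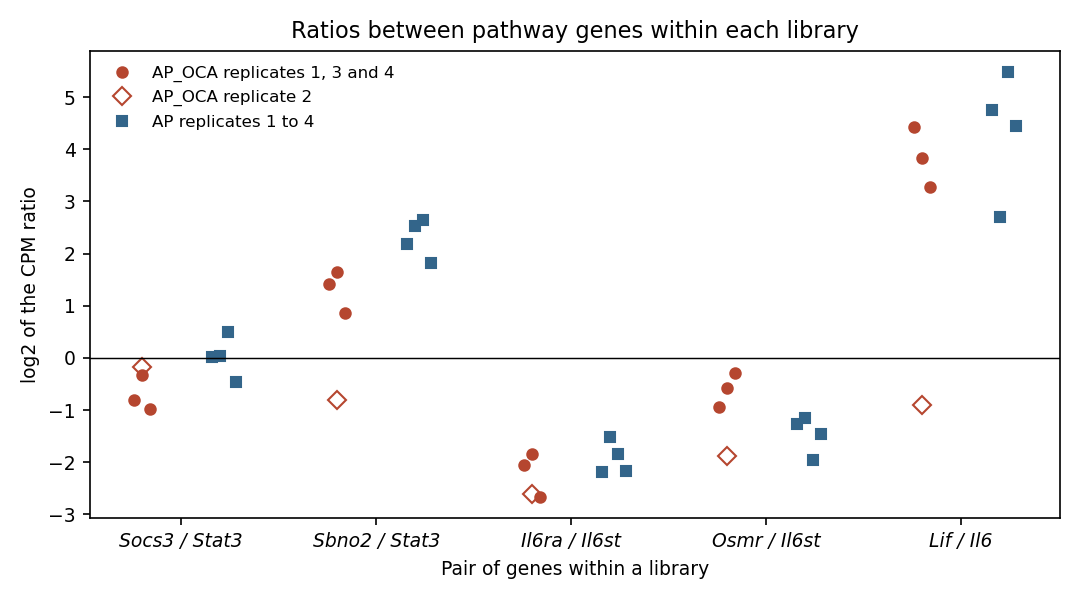
Log2 ratio of 2 genes within each library for 5 pairs; points are libraries, with AP_OCA left of AP and AP_OCA replicate 2 as an open diamond. Sbno2 to Stat3 is lower in AP_OCA replicates 1, 3 and 4 (0.85 to 1.65) than in AP (1.82 to 2.65), and Osmr to Il6st is higher (-0.94 to -0.29 against -1.96 to -1.15).

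For 8 of the 9 genes, all but Il6, the 3 genes nearest in pattern over the 7 libraries were sought among the 6721 genes that averaged 5 CPM or more. Likeness was the root mean square difference between log2 profiles after each gene's mean was removed, and smaller is closer. Sbno2 was nearest to Junb (0.149), an AP-1 subunit induced early after stimulation, then Zc3h4 (0.173) and the deubiquitinase gene Otud1 (0.184). Junb averaged 242 CPM in AP_OCA and 679 CPM in AP. Socs3 was also nearest to Otud1 (0.120), then Brat1 (0.129) and the transcription factor gene Nfil3 (0.142). Csf3r was nearest to the complement gene C3 (0.250), Tnfaip2 (0.272) and the laminin gene Lamb2 (0.302). C3 averaged 36.3 CPM in AP_OCA and 88.9 CPM in AP. Stat3 was nearest to Git2 (0.0625), Il6st to the pentraxin gene Ptx3 (0.0833), Il6ra to Tmem64 (0.0999), Osmr to the actin-related gene Actr2 (0.0618) and Lif to Coro7 (0.176). The search took the closest of 6721 genes, so a close match is a description of these 7 libraries.

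Other genes of the pathway were taken from 6 lists of 82 genes, written from textbook knowledge with earlier results of these data known. Without AP_OCA replicate 2, 68 were tested, of which 2 rose, 3 fell and 63 did not pass by limma (adjusted p under 0.05), against 0.854% of all genes passing in the higher and 1.59% in the lower direction. Their median log2 difference was -0.24. With all 8 libraries 0 of 70 passed.

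Of the other ligands, 0 of 3 tested passed. G-CSF itself (Csf3) was at 9.03, 8.81 and 8.51 CPM in AP_OCA replicates 1, 3 and 4, against 8.92, 11.0, 11.8 and 9.15 CPM in AP, and the groups overlapped. Its log2 difference was -0.19 ± 0.20, while that of its receptor gene was given above as -1.58. Osm, which encodes oncostatin M, was near the minimum level, with 0.818, 0.831 and 0.811 CPM in AP_OCA replicates 1, 3 and 4, against 0.832, 3.54, 0.925 and 2.17 CPM in AP. Its log2 difference was -0.55 ± 0.33, and -0.30 without AP replicate 2. Clcf1, another cytokine of the family, was at -0.52 ± 0.27. Il11, Cntf, Ctf1, Il27, Ebi3 and Il31 were below the minimum level, and Cntf and Il31 were at 0 in all 8 libraries.

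Of the other receptors and sheddases, 0 of 5 tested passed (median 0.24). Lifr, which pairs with gp130 to bind LIF, had a log2 difference of 0.60 ± 0.32, with 114, 121 and 125 CPM in AP_OCA replicates 1, 3 and 4, against 91.0, 80.5, 39.7 and 133 CPM in AP. AP replicate 4 was above all 3 AP_OCA libraries and AP replicate 3 far below. AP_OCA replicate 2, at 24.0 CPM, was the lowest of all 8 libraries, and with it the Lifr difference was 0.03 ± 0.58. Adam10, a protease that can shed the IL-6 receptor, was at -0.09 ± 0.21, and Il11ra1 at 0.24 ± 0.22.

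Of 12 Janus kinases, other STATs and adaptors tested, none passed, and their median was -0.50. Jak1, the kinase most used by gp130, was at 0.05 ± 0.24. Stat2, of the interferon pathway, was at -0.50 ± 0.20, and Ptpn11, which encodes the phosphatase SHP2 that docks on gp130, at -0.50 ± 0.17. In the 7 libraries, AP_OCA lay below AP without overlap in 5 of the 12, against 12.1% of all genes. These were Jak3, Stat5a, Stat5b, Stat6 and Ptpn11. With AP_OCA replicate 2 added, Jak3 (29.6 CPM in it) and Stat5b (28.4 CPM) overlapped. Stat5b stood at 13.5, 14.4 and 13.5 CPM in AP_OCA replicates 1, 3 and 4, against 23.4, 21.5, 31.8 and 20.6 CPM in AP. Its adjusted p was 0.0531 by limma, and it was named after its values were seen.

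Of 14 other inhibitors tested, 1 fell, 1 rose and 12 did not pass, with a median of -0.18. The tyrosine phosphatase gene Ptpn1, whose product dephosphorylates JAK2 and TYK2, fell by 0.95 ± 0.20 on the log2 scale (adjusted p = 0.0352 by limma). It stood at 21.1, 14.8 and 12.8 CPM in AP_OCA replicates 1, 3 and 4, against 34.3, 26.6, 34.0 and 32.5 CPM in AP. Its relative Ptpn2, whose product acts on JAK1, JAK3 and STATs in the nucleus, rose by 0.94 ± 0.20 (adjusted p = 0.0401 by limma). It stood at 17.4, 19.7 and 16.3 CPM in AP_OCA, against 10.1, 8.95, 6.72 and 9.80 CPM in AP. Neither pair of groups overlapped; AP_OCA replicate 2 held Ptpn1 at 78.3 CPM, above every other library, and Ptpn2 at 14.5 CPM. Among those that did not pass were Socs2 (0.76 ± 0.27), Socs7 (-0.72 ± 0.21) and Cish (-0.64 ± 0.20). With the length and GC trend removed neither phosphatase gene passed (-0.56 for Ptpn1 and 0.54 for Ptpn2). Ptpn1 passed in 1 of the 7 fits that left out a further library (that without AP_OCA replicate 1), and Ptpn2 in 2 of 7 (those without AP_OCA replicate 1 or 4), with differences of -1.15 to -0.81 and 0.82 to 1.00.

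Textbook STAT3 targets were taken as regulators and as secreted or acute-phase proteins. The regulators gave 2 genes that fell, none that rose and 16 that did not pass out of 18 tested, with a median of -0.54. Junb fell by 1.49 ± 0.21 (adjusted p = 0.00919 by limma) and Fos by 1.24 ± 0.27 (adjusted p = 0.0403). Fos stood at 10.4, 12.9 and 6.30 CPM in AP_OCA replicates 1, 3 and 4, against 20.2, 26.8, 34.7 and 17.1 CPM in AP, without overlap. Both are immediate early genes that many other pathways also induce. The survival gene Mcl1 was at -0.54 ± 0.16 and Cebpb, a transcription factor of the acute-phase response, at -0.02 ± 0.19. Junb no longer passed without AP replicate 3 (-1.37), and Fos passed in 1 of 7 left-out fits, that without AP_OCA replicate 1, with differences of -1.44 to -0.98.

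The secreted and acute-phase targets gave 1 gene that rose, none that fell and 15 that did not pass out of 16 tested, with a median of 0.42. Lcn2, which binds bacterial siderophores, rose by 0.91 ± 0.18 (adjusted p = 0.0285 by limma). It stood at 150.2, 165 and 208 CPM in AP_OCA replicates 1, 3 and 4, against 92.3, 105, 74.5 and 95.9 CPM in AP. AP_OCA replicate 2, at 116 CPM, was also above all AP libraries. The antibacterial lectin Reg3b stood at 2790, 4849 and 8179 CPM in AP_OCA, against 2483, 1770, 2483 and 2052 CPM in AP, without overlap and without passing (1.14 ± 0.30, adjusted p = 0.0618 by limma). Its relative Reg3a overlapped (0.42 ± 0.37). In the 7 libraries, AP_OCA lay above AP without overlap in 5 of the 16, against 11.1% of all genes, and below in 1, against 12.1%. The gene below was Icam1, an adhesion molecule for leukocytes, with 12.3, 6.66 and 0.725 CPM in AP_OCA replicates 1, 3 and 4 and 11.9 CPM in replicate 2, against 25.2, 24.3, 22.9 and 22.9 CPM in AP. It did not pass (-2.15 ± 0.61, adjusted p = 0.0883 by limma), and the difference was -1.30 without AP_OCA replicate 4. Lcn2 passed in 2 of 7 left-out fits, those without AP_OCA replicate 1 or 4, with differences of 0.78 to 1.01, and it did not pass with the length and GC trend removed (0.62). Whether the secreted targets differed otherwise than the regulators was not tested. S100a8 and S100a9 are in this list and among the neutrophil markers.

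**Figure D5:**
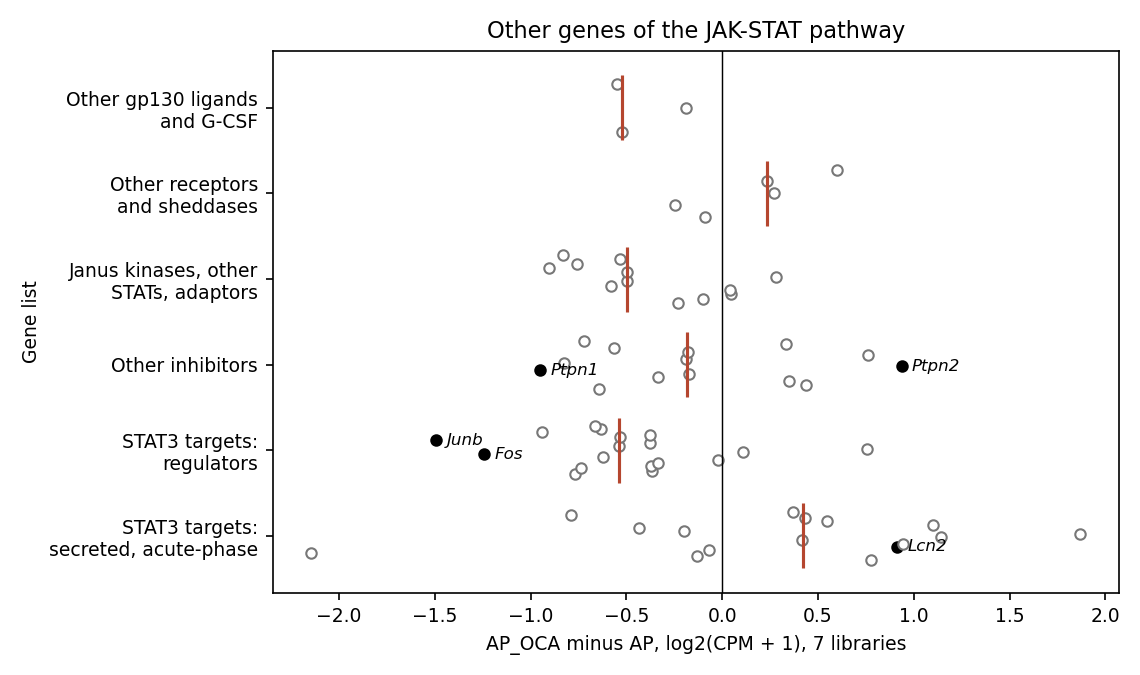
Log2 difference, AP_OCA minus AP, of each tested gene of 6 lists in the fit of 7 libraries; filled points passed limma at an adjusted p under 0.05 and are named, open points did not pass, and red lines are list medians. The median lies at -0.54 for the regulators and at 0.42 for the secreted and acute-phase targets, and 5 of the 68 genes passed.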

How the data were processed

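RNA sequencing of 8 libraries was analysed, 4 AP_OCA and 4 AP, grouped and matched to columns by title. The deposited values are log2 values: the lowest equals the log2 of 0.01 and the highest is shared by all libraries, so the authors had quantile normalised them; build mm10 is named per the submitters' processing notes, and aligner and counter are not given in the sources used here. Total reads are unknown; a count of 3, the limit that a 0 allows, is 0.206 to 0.313 CPM in 7 libraries and 0.000455 CPM in AP_OCA replicate 2 (counting error only).

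Values were taken off the log scale, 0.01 was subtracted, libraries were scaled to 1000000, and log2(CPM + 1) was tested with limma 3.58.1 (R 4.3.3; trend, robust moderation, Benjamini-Hochberg over all genes averaging 1 CPM or more, threshold 0.05), with and without AP_OCA replicate 2. The scripts were checked on simulated data. Annotation came from GENCODE M21 and the starts for the promoter windows from RefSeq, matched for all 9 genes. The 9 genes and the lists were chosen with earlier results of these data known, and 1 list gene is not reported here. Named list genes are those passing without AP_OCA replicate 2 and the 3 most abundant of each list; genes named to spell out a count, and those marked so, were chosen after their values were seen. Alternatives were other normalisations, pseudocounts, filters, tests, a replicate block and each library left out.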

Additional observations from a re-analysis of the deposited data

Results flagged for a closer look

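Among the 9 genes in the 2 groups of 4 libraries (18 checks, of which chance flags about 1 in 20), 1 value lay far from the rest of its group. Lif in AP_OCA replicate 2 was 1.29 CPM, against 57.7 to 76.3 CPM in the other 3 AP_OCA libraries and 56.3 to 125 CPM in AP. In the same library Stat3 (132 CPM) was above every AP library and Socs3 (116 CPM) within the AP range, and lymphocyte markers summed to 3559 CPM. The part of the other cell types in the Lif value was not tested.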

How the results depend on the processing

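The number of passing genes depended on the processing, and depth cannot be judged beyond the step structure of the values. Over all 8 libraries it was 0 in every alternative except quality weights (1052) and leaving out 1 library (0 to 266, the 266 without AP_OCA replicate 2). Without AP_OCA replicate 2 it was 266, and 113 both with the deposited log2 values and with the length and GC trend removed, 156 with a pseudocount of 0.1 CPM, 0 without a filter on low values (3255 with an unadjusted p under 0.05 by limma), 13 by limma without trend, 1675 with quality weights, and 7 to 973 with a further library left out (9, 12, 7 and 8 without AP replicates 1 to 4, and 973, 14 and 119 without AP_OCA replicates 1, 3 and 4). With the replicate number as a block it was 559, and AP replicate 2, having no partner, did not enter. Deviations of same-numbered libraries from their group means had correlations of -0.0715 to 0.0528. So few pairs cannot show whether such libraries share an animal or preparation. Socs3, Sbno2 and Csf3r were lower in AP_OCA in all 19 alternatives. The alternatives reuse the libraries that chose Sbno2 and Csf3r, so nothing is read from this. Some genes that did not pass changed sign: Laptm5 (0.35 with all 8 libraries), Reg3a (-0.069 with the length and GC trend removed), Cebpb (0.050 with that trend removed), Jak1 (-0.17 with quality weights), and, over the left-out fits, Adam10 (-0.24 to 0.033), Jak1 (-0.18 to 0.18) and Cebpb (-0.18 to 0.078). The numbers of list genes passing ranged from 0 to 13 lower and 0 to 6 higher over the left-out fits. The causes were not tested.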
